A study of Mus musculus with 12 samples.

Results

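The Bcl2 family genes and the caspase gene described here, 9 in all, belong to the mitochondrial route to apoptosis and were followed through 12 RNA-seq libraries of mouse testis. They were picked by symbol, with earlier results of these data known, and they are Bcl2l1, Bcl2, Bcl2l2, Mcl1, Bax, Bak1, Bid, Bok and Casp9. They are 9 of the 20788 genes in the table, and all 9 were among the 16388 genes with enough reads to be tested. The testes were those of male F1 offspring, which the study describes as raised to 8 weeks of age and fathered by males whose testes had been injected with a lentivirus, a vector that inserts its cargo into the genome of the cells it enters. The design text of the series says instead that the F1 testes were themselves transfected. Which of these holds was not settled here. The virus of the 3NC group was the LV3 control, and that of the knockdown group was a mixed virus of 3 hairpins against lncRNA5251, a long non-coding RNA, in the same LV3 vector. The virus of the 5NC group was the LV5 control, and that of the overexpression group was LV5 with lncRNA5251 inserted. Each group had 3 libraries, the strain is "IRC mouse" in the labels and ICR in the study, and no group was free of virus treatment. Whether the 3 libraries of a group are from different animals is not stated in the labels. The p-values therefore reflect only how much these libraries vary, part of which may be technical.

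Apoptosis through mitochondria is set by the balance of the Bcl2 family. Antiapoptotic members hold back the effectors Bax and Bak1, BH3-only proteins such as Bid relieve that hold, and active effectors open the outer mitochondrial membrane so that cytochrome c can drive caspase-9 and the caspases downstream of it. In the testis, apoptosis of germ cells is part of normal spermatogenesis, and the balance of Bax with Bcl2l1 and Bcl2l2 is known to matter for how many germ cells survive.

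The libraries held 12719699 to 15771655 estimated reads. Germ cell transcripts were abundant in each. The 8 elongating spermatid markers summed to 15708 to 21806 CPM (read counts scaled to a common library total by TMM). A principal component analysis of log2 CPM put 39.4% of the variance on the leading axis, which set 3NC replicate 2 and knockdown replicate 1 apart from the other 10 libraries. These 2 libraries had the lowest elongating spermatid sums, 15708 and 16197 CPM, although 5NC replicate 2 was close, at 16335 CPM. Both 3NC replicate 2 and knockdown replicate 1 carried more white blood cell transcripts. Ptprc, the pan-leukocyte surface phosphatase, was at 94.8 CPM in 3NC replicate 2, at 71.7 CPM in knockdown replicate 1 and at no more than 6.91 CPM elsewhere. Fold changes of the 9 genes are therefore also given without these libraries. The level of lncRNA5251 was not analysed here. In a bulk sample, fewer cells of a type and less RNA per cell cannot be told apart.

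Sequences just upstream of the start are shown for 4 of the genes because 3 of them, Bax, Mcl1 and Casp9, were high together in the libraries that stood apart, while the other one, Bcl2l1, was not. Each run is 250 bases from RefSeq (GRCm38.p6), 5′ to 3′ on the strand of the gene, with matches to a GC box (GGGCGG) or an E box (CACGTG) on either strand in capitals. The windows are chr7:45466899-45467148 for Bax, chr3:95658471-95658720 for Mcl1, chr4:141793362-141793611 for Casp9 and, for one of 3 annotated starts, chr2:152831729-152831978 for Bcl2l1. The Mcl1 window lies inside the RefSeq span of Mcl1, which begins upstream at 95656944, and all 3 Bcl2l1 windows lie inside the span of Bcl2l1, which begins upstream at 152833803. For these genes the outermost start is therefore not covered.
Bax: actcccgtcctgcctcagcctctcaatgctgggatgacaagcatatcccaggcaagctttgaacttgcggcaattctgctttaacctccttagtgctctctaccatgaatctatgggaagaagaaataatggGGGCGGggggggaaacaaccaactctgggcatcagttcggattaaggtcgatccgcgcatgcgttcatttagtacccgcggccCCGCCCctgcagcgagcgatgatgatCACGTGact
Mcl1: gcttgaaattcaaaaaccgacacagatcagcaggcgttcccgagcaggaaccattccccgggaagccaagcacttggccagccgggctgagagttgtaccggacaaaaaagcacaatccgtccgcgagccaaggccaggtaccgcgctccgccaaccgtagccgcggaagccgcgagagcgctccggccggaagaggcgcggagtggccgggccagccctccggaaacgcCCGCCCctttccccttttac
Casp9: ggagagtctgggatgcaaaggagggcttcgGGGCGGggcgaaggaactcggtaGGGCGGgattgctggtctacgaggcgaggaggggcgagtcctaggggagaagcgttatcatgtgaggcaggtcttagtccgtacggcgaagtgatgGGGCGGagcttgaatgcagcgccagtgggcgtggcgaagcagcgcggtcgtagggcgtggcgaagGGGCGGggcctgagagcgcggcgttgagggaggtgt
Bcl2l1: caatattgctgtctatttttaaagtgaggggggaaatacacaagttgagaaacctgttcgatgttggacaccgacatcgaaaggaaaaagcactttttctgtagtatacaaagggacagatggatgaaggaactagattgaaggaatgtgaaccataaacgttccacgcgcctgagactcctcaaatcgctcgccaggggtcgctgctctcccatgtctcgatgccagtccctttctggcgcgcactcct
The Casp9 window held 4 GC boxes, the Bax window 2 GC boxes and 1 E box, the Mcl1 window 1 GC box, and the Bcl2l1 window none of either. The other Bcl2l1 windows also held none. The windows of Bcl2, Bid and Bak1, also high in those libraries, held 7, 3 and 0 GC boxes, and those of Bcl2l2 and Bok, which were not, held 1 each. No relation was tested. The Bid window, chr6:120916825-120917074, lies mostly inside the RefSeq span of Bid, so it is mostly not upstream of it. The Bcl2l2 window, chr14:54883175-54883424, and by a few bases the Bax window also run into the spans of their genes. Among 32851 mouse windows of the same length, 32.7% held a GC box and 6.02% an E box. Neither CCAAT (33.8% of windows) nor TATAAA (12.4%) was found on either strand in the windows of the 9 genes. Such matches describe these letters only. GC content was 66.0% for Casp9, 64.4% for Mcl1, 54.0% for Bax and 47.6% for this Bcl2l1 window, against a median of 52.4% over all windows.

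Levels of different genes were compared in RPKM, a length-scaled and depth-scaled read level computed by the authors. Bcl2l1, which encodes the antiapoptotic protein Bcl-xL, was highest, at 43.8 ± 3.37 RPKM (SD over 12 libraries). Mcl1, a short-lived antiapoptotic protein, followed at 30.5 ± 7.02 RPKM. Both ranges overlapped, although Bcl2l1 was above Mcl1 in 11 of 12 libraries. Both were above all 7 other genes in each library. Next came the effectors Bax, at 9.45 ± 3.34 RPKM, and Bak1, at 8.21 ± 2.98 RPKM, and the antiapoptotic Bcl2l2 (Bcl-w), at 7.90 ± 1.01 RPKM, and these 3 genes overlapped. Casp9 was at 3.15 ± 0.50 RPKM, Bok, a relative of Bax and Bak1, at 2.42 ± 0.389 RPKM and Bid at 1.79 ± 0.719 RPKM, and each overlapped its neighbour in this order. Bcl2 itself was lowest, at 0.211 ± 0.141 RPKM, and its range did not reach that of Bid. Of the RPKM summed over the 9 genes, the 4 antiapoptotic genes made up 68.8% to 79.8% in each library, and Bcl2l1 alone 28.4% to 46.0%. The lowest of both shares was in 3NC replicate 2.

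**Figure D1:**
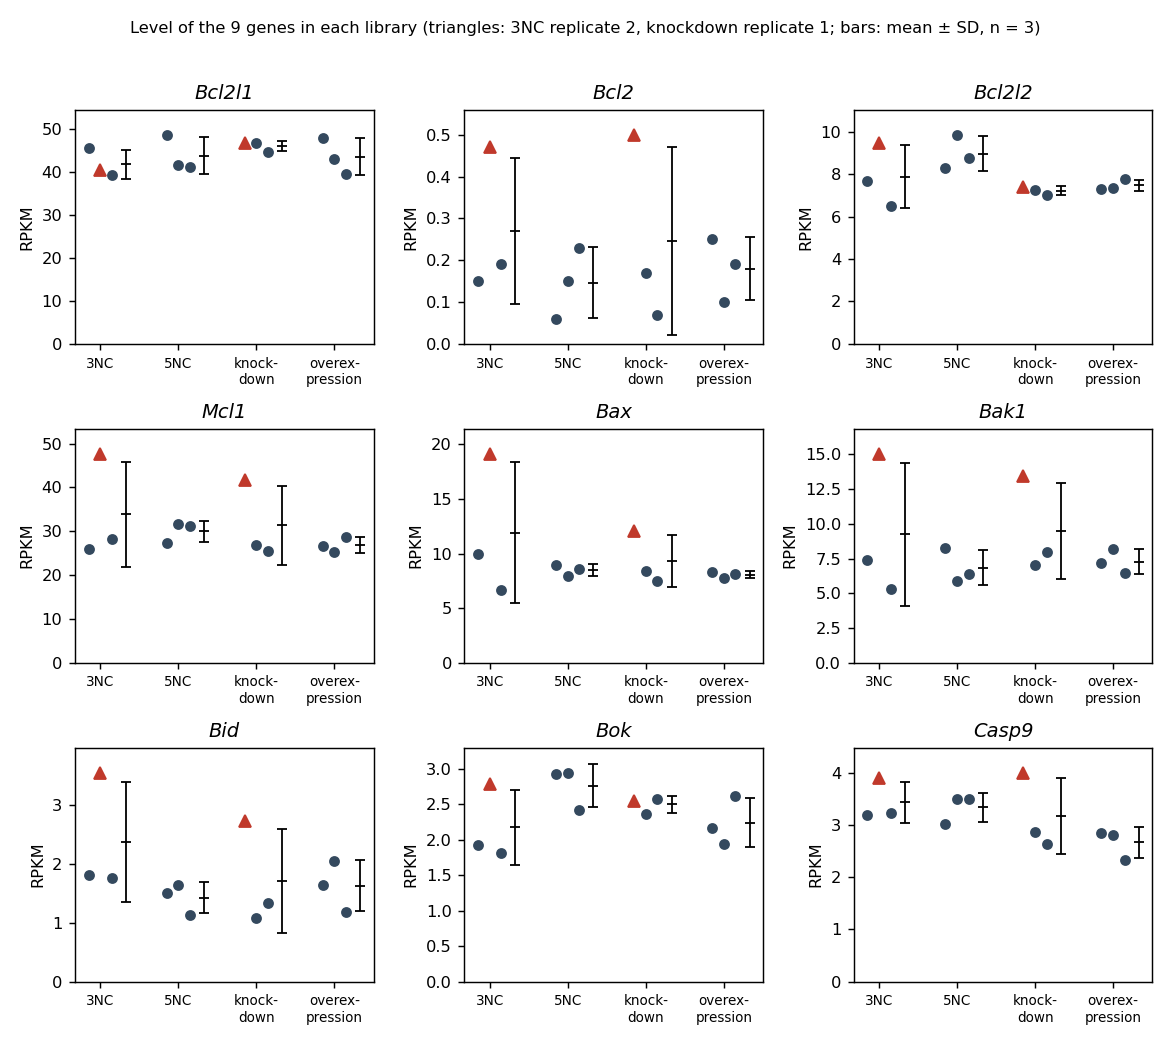
RPKM (vertical axes, starting at 0) of each of the 9 genes in every library of the 4 groups, with 1 point per library and the mean ± SD of 3 libraries beside it. Red triangles mark 3NC replicate 2 and knockdown replicate 1, which lie above the other 10 libraries for Bcl2, Mcl1, Bax, Bak1, Bid and Casp9.

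Among the antiapoptotic genes, Bcl2l1 (gene ID 12048, minus strand of chromosome 2, 152758732 to 152833803) had close values in all libraries. It was at 45.6, 40.5 and 39.4 RPKM in 3NC replicates 1 to 3, 46.8, 46.7 and 44.8 RPKM in the knockdown group, 48.7, 41.8 and 41.1 RPKM in 5NC and 48.0, 43.2 and 39.5 RPKM in the overexpression group. The groups overlapped in each comparison, and 3NC replicate 2 was low rather than high. On the count scale Bcl2l1 differed by a log2 fold change of 0.14 (SE 0.10) for knockdown against 3NC, 0.07 (SE 0.10) for overexpression against 5NC and 0.00 (SE 0.10) for 5NC against 3NC.

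Mcl1 (gene ID 17210, plus strand of chromosome 3, 95656944 to 95663179) was at 25.9, 47.7 and 28.2 RPKM in 3NC, 41.6, 26.8 and 25.6 RPKM in the knockdown group, 27.3, 31.6 and 31.2 RPKM in 5NC and 26.7, 25.2 and 28.8 RPKM in the overexpression group. Its values were close to each other apart from 3NC replicate 2 and knockdown replicate 1, and the groups overlapped. In the other 10 libraries Mcl1 and Bcl2l1 had the smallest spreads of the 9 genes, with coefficients of variation of 7.59% and 8.33% in CPM and, in the opposite order, 8.02% and 7.77% in RPKM. The log2 fold changes of Mcl1 were -0.12 (SE 0.21), -0.10 (SE 0.21) and -0.21 (SE 0.21) for knockdown against 3NC, overexpression against 5NC and 5NC against 3NC.

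Bcl2l2 (gene ID 12050, plus strand of chromosome 14, 54883366 to 54890858) was at 7.70, 9.46 and 6.52 RPKM in 3NC, 7.42, 7.26 and 7.03 RPKM in the knockdown group, 8.29, 9.87 and 8.77 RPKM in 5NC and 7.32, 7.35 and 7.79 RPKM in the overexpression group. All 3 overexpression libraries were below all 3 libraries of 5NC, and knockdown overlapped 3NC. Of the 9 genes, Bcl2l2 and Casp9 were lower without overlap in overexpression against 5NC, as were 10% of the 16388 tested genes. In the same order of comparisons its log2 fold changes were -0.15 (SE 0.10), -0.18 (SE 0.10) and 0.14 (SE 0.10), and the adjusted p by edgeR's quasi-likelihood test for overexpression against 5NC was 0.514. Of the 4462 exonic bases of Bcl2l2 in GENCODE, 594 (13.3%) also lie in exons of Gm20521 on the same strand. How reads of these bases were assigned is not given, so the level of Bcl2l2 carries this uncertainty.

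Bcl2 (gene ID 12043, minus strand of chromosome 1, 106538176 to 106714290), the founding antiapoptotic member, was close to the limit of detection. It was at 0.15, 0.47 and 0.19 RPKM in 3NC, 0.50, 0.17 and 0.07 RPKM in the knockdown group, 0.06, 0.15 and 0.23 RPKM in 5NC and 0.25, 0.10 and 0.19 RPKM in the overexpression group. These values rest on 6 to 55 estimated reads per library. Counting error alone gives exact Poisson 95% intervals of 2.2 to 13.1 for the 6 reads of 5NC replicate 1 and 41.4 to 71.6 for the 55 reads of knockdown replicate 1. Such intervals cover counting error only, since PCR copies are not independent molecules. The log2 fold changes were 0.21 (SE 0.68), 0.40 (SE 0.72) and -0.65 (SE 0.71), and a difference of Bcl2 was not detectable at this depth and spread. For overexpression against 5NC the value ran from 0.0062 without 5NC replicate 1 to 0.92 without 5NC replicate 3.

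The effectors varied more than Bcl2l1. Bax (gene ID 12028, minus strand of chromosome 7, 45461695 to 45466903) was at 9.93, 19.1 and 6.70 RPKM in 3NC, 12.02, 8.38 and 7.53 RPKM in the knockdown group, 8.99, 7.91 and 8.54 RPKM in 5NC and 8.33, 7.73 and 8.17 RPKM in the overexpression group. The value in 3NC replicate 2 was the highest, that in knockdown replicate 1 came next, and the groups overlapped. Fold changes of Bax on the log2 scale were -0.31 (SE 0.28), -0.04 (SE 0.28) and -0.47 (SE 0.28). Of the 1576 exonic bases of Bax in GENCODE, 192 (12.2%) also lie in exons of Gm45808 on the same strand. How reads of these bases were assigned is not given, so the level of Bax carries this uncertainty.

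Bak1 (gene ID 12018, minus strand of chromosome 17, 27019812 to 27028627), which acts beside Bax, was at 7.38, 15.1 and 5.28 RPKM in 3NC, 13.4, 7.03 and 7.95 RPKM in the knockdown group, 8.26, 5.86 and 6.40 RPKM in 5NC and 7.15, 8.21 and 6.47 RPKM in the overexpression group. Again 3NC replicate 2 and knockdown replicate 1 were high and the groups overlapped. For Bak1 the log2 fold changes were 0.07 (SE 0.34), 0.14 (SE 0.35) and -0.50 (SE 0.34). With 1 library left out, the value for overexpression against 5NC ran from 0.04 to 0.30. Of the 2407 exonic bases of Bak1 in GENCODE, 614 (25.5%) also lie in exons of Ggnbp1 on the opposite strand, a gene at 346.5 to 538.9 RPKM here. The counting is not stated to use strand, so reads of the shared bases cannot be told apart and the level of Bak1 is uncertain.

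Bok (gene ID 51800, plus strand of chromosome 1, 93685575 to 93695770) was at 1.93, 2.79 and 1.81 RPKM in 3NC, 2.55, 2.37 and 2.58 RPKM in the knockdown group, 2.93, 2.95 and 2.42 RPKM in 5NC and 2.17, 1.94 and 2.62 RPKM in the overexpression group. Its groups overlapped, and neither 3NC replicate 2 nor knockdown replicate 1 was above all the others. Log2 fold changes of Bok were 0.23 (SE 0.20), -0.26 (SE 0.20) and 0.33 (SE 0.20).

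Bid (gene ID 12122, minus strand of chromosome 6, 120893119 to 120917062), the BH3-only protein that caspase-8 cleaves to link death receptors to mitochondria, was at 1.82, 3.56 and 1.76 RPKM in 3NC, 2.73, 1.09 and 1.34 RPKM in the knockdown group, 1.51, 1.64 and 1.14 RPKM in 5NC and 1.65, 2.06 and 1.19 RPKM in the overexpression group. All 3 libraries of 5NC were below all 3 of 3NC, as were 6.18% of tested genes. This was the smallest p of the 9 genes in any comparison, the log2 fold change being -0.74 (SE 0.37) with 0.494 as the edgeR adjusted p. It ran from -0.87 without 3NC replicate 3 to -0.40 without 3NC replicate 2. The log2 fold changes for knockdown against 3NC and overexpression against 5NC were -0.45 (SE 0.36) and 0.23 (SE 0.37). With 1 library left out the first ran from -0.92 without knockdown replicate 1 to -0.12 without 3NC replicate 2, and the second from 0.03 without overexpression replicate 2 to 0.42 without overexpression replicate 3. Bid rests on 26 to 94 reads per library, and 628 of its 3550 exonic bases (17.7%) are shared with Bcl2l13 on the opposite strand. Bcl2l13 was at 5.71 to 7.45 RPKM, so the level of Bid is uncertain in the same way as that of Bak1.

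Casp9 (gene ID 12371, plus strand of chromosome 4, 141793612 to 141815978), the initiator caspase of the apoptosome, was at 3.18, 3.89 and 3.22 RPKM in 3NC, 4.0, 2.86 and 2.64 RPKM in the knockdown group, 3.02, 3.49 and 3.50 RPKM in 5NC and 2.85, 2.81 and 2.33 RPKM in the overexpression group. All overexpression libraries lay below all 5NC libraries, and knockdown overlapped 3NC. Casp9 had log2 fold changes of -0.09 (SE 0.16), -0.27 (SE 0.16) and -0.06 (SE 0.16), with an edgeR adjusted p of 0.535 for overexpression against 5NC. With 1 library left out, that fold change ran from -0.34 to -0.17.

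**Figure D2:**
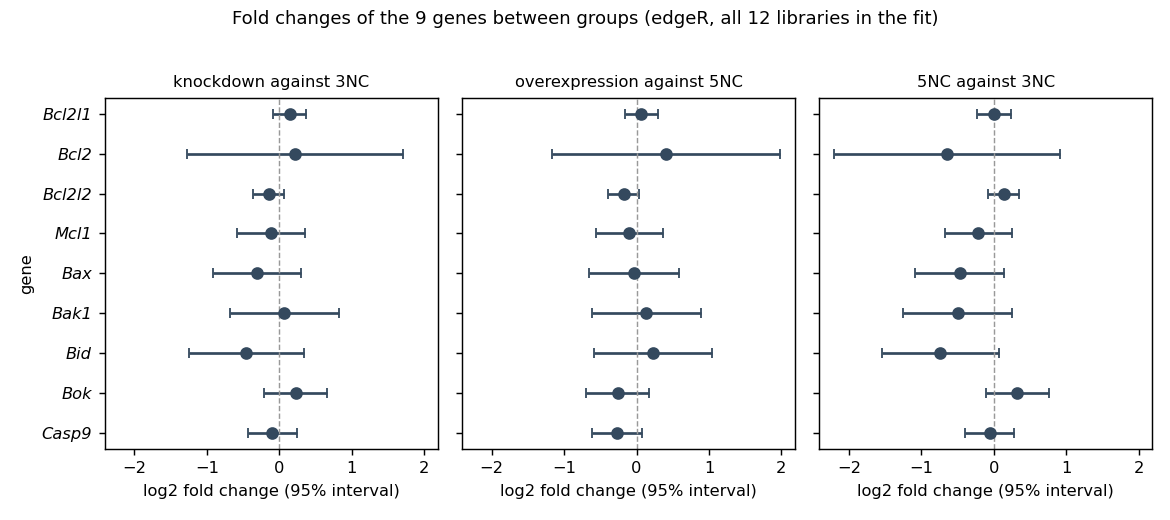
Log2 fold changes of the 9 genes with 95% intervals (horizontal axes) in 3 comparisons, from edgeR with all 12 libraries in the fit. Every interval crosses 0, the widest being that of Bcl2 and the narrowest those of Bcl2l1 and Bcl2l2.

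By edgeR's quasi-likelihood test, 0 of the 9 genes passed an adjusted p of 0.05 in knockdown against 3NC, where 0% of tested genes passed. The count was also 0 of 9 in overexpression against 5NC, where 0.311% of tested genes passed, and 0 of 9 in 5NC against 3NC, where 0.128% passed. For the difference of the knockdown and overexpression effects it was 0 of 9, against 0.0244%. In knockdown against 3NC, 0 of 9 were free of overlap between the groups, against 11.3% of tested genes. At an unadjusted p under 0.05, 0 of 9 passed in each of the 4, against 5.64%, 11.9%, 10.8% and 4.63% of tested genes. With 1 library left out this count reached 1 of 9 for knockdown against 3NC, without 3NC replicate 3 (8.14% of tested genes) or knockdown replicate 1 (7.49%), and 2 of 9 for 5NC against 3NC, without 3NC replicate 2 (12.3%) or 3NC replicate 3 (12.4%). It reached 1 of 9 for the difference, without 3NC replicate 2 (8.12%) or knockdown replicate 1 (4.63%), and stayed at 0 for overexpression against 5NC, where 6.59% to 14.2% of tested genes passed. DESeq2 and limma-trend on log2 CPM also called 0 of 9 in each. The comparisons of overexpression with 5NC and of 5NC with 3NC share the 5NC libraries, and those of knockdown with 3NC and of 5NC with 3NC share the 3NC libraries. The median log2 fold change over the 9 genes was -0.09, -0.04 and -0.21 in these comparisons, beside -0.02, -0.01 and -0.02 over all tested genes. The medians of the 9 turned with 1 library. Without 3NC replicate 2 they were 0.12 for knockdown against 3NC and 0.01 for 5NC against 3NC. Without knockdown replicate 1 the knockdown median was -0.28, without knockdown replicate 3 it was 0.01, and without 5NC replicate 1 the overexpression median was 0.01. A p that misses the threshold does not show that these genes did not differ. The 95% intervals for knockdown against 3NC run from -0.09 to 0.37 for Bcl2l1, from -0.92 to 0.31 for Bax and from -1.28 to 1.71 for Bcl2.

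The ratio of Bax to Bcl2l1 sets an effector against the most abundant antiapoptotic gene. In RPKM it was 0.218, 0.473 and 0.170 in 3NC, 0.257, 0.179 and 0.168 in the knockdown group, 0.185, 0.189 and 0.208 in 5NC and 0.173, 0.179 and 0.207 in the overexpression group. The highest was in 3NC replicate 2 and the next in knockdown replicate 1. The other 10 libraries lay between 0.168 and 0.218, and the 4 groups overlapped. The group means were 0.287 ± 0.163, 0.201 ± 0.0482, 0.194 ± 0.0123 and 0.186 ± 0.0178 (SD, n = 3) in the same order. The ratio of Bax to Bcl2 ran from 24.0 to 149.8 over the libraries and rests on the few Bcl2 reads.

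The pattern that most set libraries apart did not follow the groups. The libraries that stood apart are both from the LV3 groups, 3NC and knockdown, and no library of the LV5 groups stood apart. In 3NC replicate 2 and knockdown replicate 1, 6 of the 9 genes were above all the other 10 libraries in CPM, as were 13.9% of the tested genes, and 0 of 9 were below, as were 5.25%. Relative to the median of the other 10, Bcl2 was 2.67 and 3.48 times as high in these libraries, Bak1 2.01 and 1.90 times, Bid 2.15 and 1.72 times and Bax 2.12 and 1.41 times. Mcl1 was 1.69 and 1.52 times as high and Casp9 1.24 and 1.32 times. The 3 genes not above were Bcl2l1, at 0.839 and 0.994 times, Bcl2l2, at 1.17 and 0.936 times, and Bok, at 1.09 and 1.04 times. These are descriptions, since the libraries were picked out by their values across all genes.

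**Figure D3:**
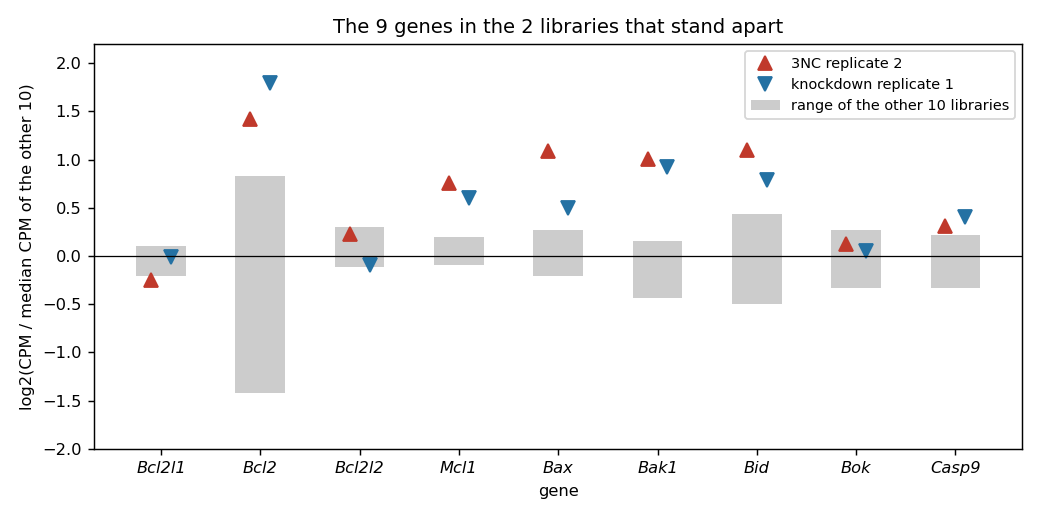
Log2 ratio of the CPM in 3NC replicate 2 (red) and knockdown replicate 1 (blue) to the median of the other 10 libraries (vertical axis) for each gene, with the range of those 10 as grey bars. Both triangles lie above the bar for 6 of the 9 genes, and Bcl2l1, Bcl2l2 and Bok are the others.

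Immune cell transcripts moved with this pattern. The macrophage list (8 genes, all tested, 7 above in both libraries) summed to 253.9 CPM in 3NC replicate 2 and 394.2 CPM in knockdown replicate 1, against 81.3 to 100.1 CPM in the other 10. By group the sums ran from 81.3 to 253.9 CPM in 3NC, 82.4 to 394.2 CPM in the knockdown group, 84.5 to 95.2 CPM in 5NC and 96.2 to 100.1 CPM in the overexpression group. The leukocyte and lymphocyte list (8 genes, 5 above in both) summed to 141.6 and 113.9 CPM in these libraries, against 5.74 to 14.5 CPM in the others. No marker of either list was at 0 in every library, though Cd3e, Cd3g and Cd79a were at 0 in some. The part of these cells in the levels of the 9 genes was not tested.

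Leaving these libraries out moved the fold changes of the genes that were high in them. Without both, the log2 fold changes for 5NC against 3NC were 0.04 for Bcl2, 0.01 for Bak1, -0.04 for Bax, -0.40 for Bid and 0.06 for Mcl1, in place of -0.65, -0.50, -0.47, -0.74 and -0.21. In that comparison Bcl2l1 was then at -0.06, Bcl2l2 at 0.23, Bok at 0.49 and Casp9 at -0.0018. For knockdown against 3NC, Bax was at -0.06 in place of -0.31 and Bcl2 at -0.05 in place of 0.21. The others were then at 0.09 for Bcl2l1, -0.05 for Bcl2l2, -0.08 for Mcl1, 0.23 for Bak1, -0.59 for Bid, 0.40 for Bok and -0.21 for Casp9. Without 3NC replicate 2 alone, the knockdown changes of Bax, Bak1 and Mcl1 were 0.12, 0.57 and 0.16, and without knockdown replicate 1 alone they were -0.50, -0.28 and -0.36. Overexpression against 5NC holds neither library, and with both out Casp9 was at -0.27 and Bcl2l2 at -0.18, as in the fit of all 12 libraries. With both out, 0 of the 9 genes passed in any comparison, and the smallest edgeR adjusted p of the 9 was 0.294, for Bok in 5NC against 3NC (log2 fold change 0.49).

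Each gene was also matched with the tested gene, outside the apoptosis lists, whose log2 CPM followed it most closely over the 12 libraries. The partners and Pearson correlations were Eif5a for Bcl2l1 (0.98), M6pr for Mcl1 (0.98), L3hypdh for Bcl2l2 (0.95) and Etv3 for Bcl2 (0.93). They were Prr13 for Bak1 (0.98), Serpinh1 for Bax (0.97), Araf for Bid (0.91), Mrpl49 for Casp9 (0.91) and Rad9a for Bok (0.89). Each is the highest r among the tested genes outside those lists and the 9, and all points are libraries that the genes share. In the 10 libraries without the pair that stood apart, they were 0.97, 0.90, 0.93, 0.92, 0.93, 0.88, 0.79, 0.87 and 0.91 in the order given. Among the 9 genes, Bax and Bak1 followed each other most closely over 12 libraries (r 0.87), and their r over those 10 was 0.50. Mcl1 and Bak1 had an r of 0.68 over 12 libraries and of -0.94 over the other 10.

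The remaining apoptosis genes came from lists of 53 genes, of which 46 were tested. As for the 9 genes, 0 of 46 passed in either direction in the 4 comparisons by edgeR, and 0, 5, 7 and 1 had an unadjusted p under 0.05, against the shares of 5.64%, 11.9%, 10.8% and 4.63% of tested genes given above. With 1 library left out these counts ran from 0 to 5, 2 to 7, 5 to 13 and 0 to 5. The shares of all tested genes ran from 2.88% to 10.3%, 6.59% to 14.2%, 6.94% to 12.6% and 3.35% to 8.12%. The 5 in the first and the last came from leaving out 3NC replicate 2, where 6.39% and 8.12% of tested genes passed. For 5NC against 3NC, the count was 13 with 3NC replicate 3 left out (12.4% of tested genes) and 12 with 3NC replicate 1 left out (12.6%). For overexpression against 5NC it was 3 with 5NC replicate 3 left out (7.61%), and 2 with 5NC replicate 2 (8.17%), overexpression replicate 1 (6.59%) or overexpression replicate 2 (7.92%) left out. The median log2 fold change over the 46 was -0.11, -0.15 and -0.03 for knockdown against 3NC, overexpression against 5NC and 5NC against 3NC. Without 3NC replicate 2 it was 0.10 for knockdown against 3NC and 0.18 for 5NC against 3NC. For knockdown against 3NC the smallest p were those of Cycs, somatic cytochrome c (log2 fold change -0.38, SE 0.20), and Aifm1, apoptosis-inducing factor (-0.33, SE 0.20), both with an edgeR adjusted p of 0.764. Both were highest of 3NC in replicate 2, Cycs at 94.6 CPM against 55.6 and 78.4 CPM and Aifm1 at 21.1 CPM against 12.9 and 13.1 CPM. For overexpression against 5NC, Diablo, which antagonizes the inhibitors of apoptosis, was at -0.24 (SE 0.09, edgeR adjusted p 0.337). For 5NC against 3NC, Bcl2l11, the BH3-only protein Bim, was at -0.76 (SE 0.27, edgeR adjusted p 0.387). It was at 17.2 CPM in 3NC replicate 2, against 10.6 and 7.43 CPM in the other 3NC libraries and 5.94 to 8.16 CPM in 5NC. For the difference of effects, Bmf, another BH3-only gene, was at 0.83 (SE 0.41, edgeR adjusted p 0.9999).

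Bcl2l14, a Bcl2 family gene whose role is less settled, had the smallest p of the lists in 3 comparisons. It was at 368.8, 308.3 and 455.4 CPM in 3NC, 356.7, 401.9 and 387.0 CPM in the knockdown group, 271.2, 277.1 and 274.5 CPM in 5NC and 375.1, 377.6 and 354.7 CPM in the overexpression group. All 3 libraries of 5NC were below every other library. The log2 fold change was 0.43 (SE 0.12, edgeR adjusted p 0.169) for overexpression against 5NC and -0.46 (SE 0.12, edgeR adjusted p 0.228) for 5NC against 3NC, and both share 5NC. For the difference of effects it was -0.41 (SE 0.17, edgeR adjusted p 0.9999). It passed for overexpression against 5NC with DESeq2 (adjusted p 0.0385, 1.54% of genes called), with only the 6 libraries compared (edgeR 0.0401, 0.675% called) and without both libraries that stood apart (edgeR 0.0437, 0.968% called). For 5NC against 3NC it passed with DESeq2 (0.0264, 0.818% called), without 3NC replicate 2 (0.0430, 0.212% called) and without both (0.0355, 0.274% called). In all other settings tried for each comparison Bcl2l14 did not pass, and these were most of the settings. The round spermatid markers summed to 1482 to 1508 CPM in 5NC, against 1722 to 1887 CPM in the overexpression group and 1448 to 2062 CPM in 3NC. The epididymis markers summed to 12.7 to 276.2 CPM in 5NC, against 0.329 to 0.635 CPM in the overexpression group and 31.6 to 72.1 CPM in 3NC. By edgeR for overexpression against 5NC, 0.311% of all tested genes passed. Of 5 tested blood markers 2 passed, the beta-globin genes Hbb-bs (log2 fold change 7.89, edgeR adjusted p 0.000605) and Hbb-bt (5.56, edgeR adjusted p 0.0492). The alpha-globin gene Hba-a1 was at 0.43 (adjusted p 0.793). In 5NC against 3NC, where 0.128% of tested genes passed, Hbb-bs was at -8.47 (edgeR adjusted p 0.000336) and Hbb-bt at -6.46 (edgeR adjusted p 0.0284). The 5NC libraries held 0, 0 and 0.0716 CPM of Hbb-bs and 0, 0.0704 and 0 CPM of Hbb-bt. The beta-globin fold changes in both comparisons therefore rest on a group with almost no reads of these genes. Of 4 tested epididymis markers all were lower in overexpression than in 5NC without overlap, as were 10% of all tested genes. Of these 4 markers 1, Spint3, passed (-3.51, edgeR adjusted p 0.0206), against 0.311% of all tested genes. Of 8 spermatocyte markers 1 passed for overexpression against 5NC, Spo11 (-0.51, adjusted p 0.0452), with 4 above 0 and a list median of -0.05. These genes were named after their values were seen. The part of what these markers measure in Bcl2l14, or in Bcl2l2 and Casp9 in overexpression against 5NC, was not tested.

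**Figure D4:**
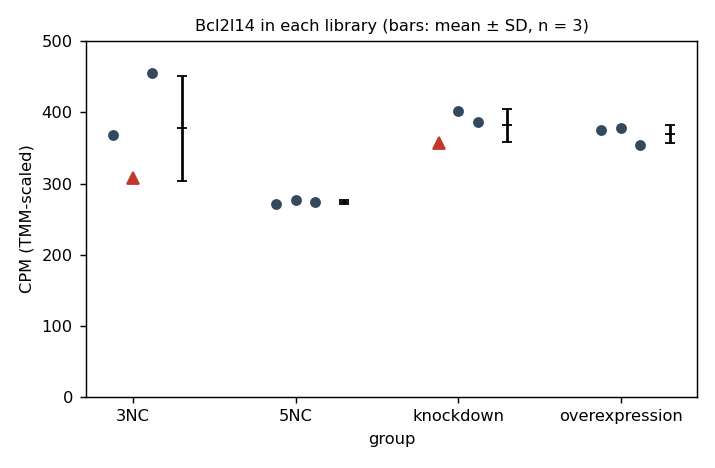
CPM of Bcl2l14 (vertical axis, starting at 0) in every library of the 4 groups, with the mean ± SD of 3 libraries as bars. The 3 libraries of 5NC sit between 271.2 and 277.1 CPM, below the other 9 libraries.

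In the libraries that stood apart, 17 of the 46 tested list genes were above all the other 10 in CPM and 1, Diablo, was below, where 13.9% of tested genes were above and 5.25% below. Examples here were picked after their values were seen. All 3 tested inflammatory and other caspases were above, among them Casp1 at 17.9 and 10.7 CPM against at most 4.08 CPM. Casp8, 1 of 2 other initiators and the caspase of death receptors, was at 17.6 and 10.5 CPM against at most 5.08 CPM. The counts were 5 of 8 for the death receptor route, 3 of 5 for inhibitors of apoptosis and 2 of 6 tested BH3-only genes. They were 1 of 3 for the apoptosome, 1 of 4 for proteins released from mitochondria and 1 of 4 tested for the p53 route, and 0 for Casp6, the mitochondrial pore, the caspase substrates and the Bcl2 family genes of less settled role. The antiapoptotic Bcl2a1 genes and Bcl2l10 had too few reads to be tested. Bcl2a1b was at 9.69 and 7.21 CPM in these libraries against at most 0.463 CPM in the other 10, and Bcl2a1a and Bcl2a1d were also above. Bcl2l10 was not, at 0.0621 and 0.126 CPM against 0 to 0.238 CPM. Near-identical Bcl2a1 copies can share reads.

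**Figure D5:**
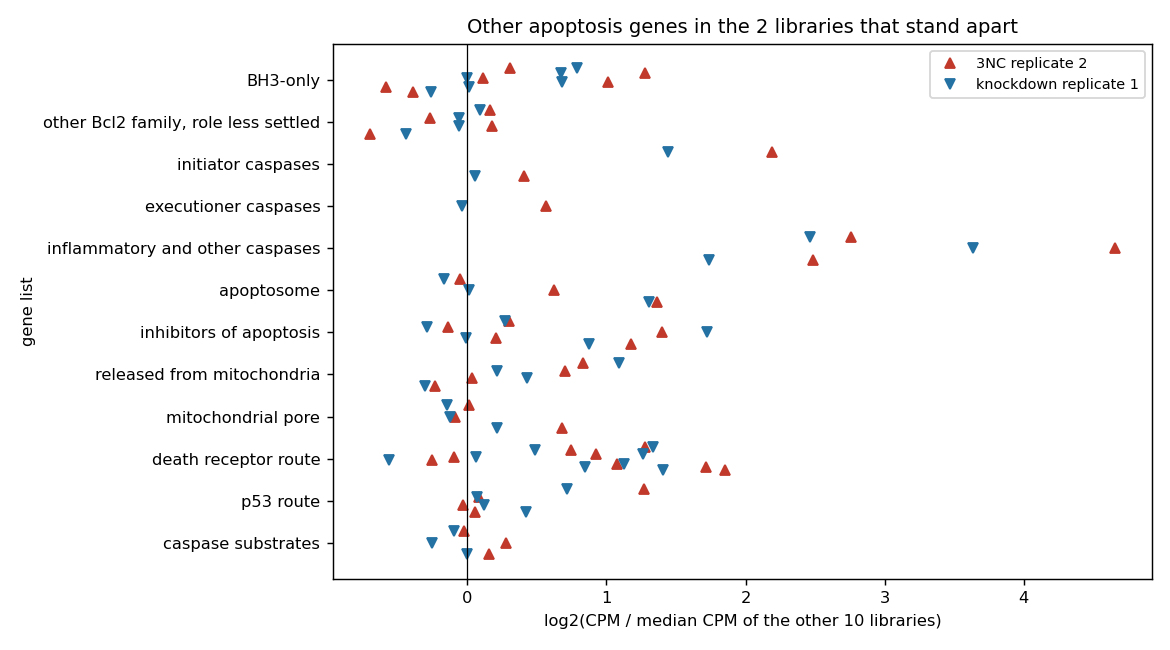
Log2 ratio of CPM in 3NC replicate 2 (red) and knockdown replicate 1 (blue) to the median of the other 10 libraries (horizontal axis) for the 46 tested genes of 12 apoptosis lists, 1 pair of triangles per gene. The inflammatory and other caspases reach furthest to the right, and the caspase substrates stay nearest to 0.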

How the data were processed

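RNA-seq of F1 testes was analysed from 1 deposited gene table. Per the study's methods, messenger RNA was enriched with oligo(dT) beads although the labels name total RNA, reads were mapped to mouse genes with SOAPaligner, and DEGseq, which has no term for spread between libraries, called genes. Build mm10 is from the submitters' processing notes. The deposited estimated counts are not scaled, and 17.26% of genes hold a fraction in at least 1 library. The sources used here do not give how reads were shared among genes. The RPKM values were computed by the authors from read number, gene length and library total. A further 18 per-sample columns were not used.

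Estimated counts were rounded, filtered with filterByExpr (16388 of 20788 genes kept) and scaled by TMM. edgeR 4.0.16 in R 4.3.3 gave quasi-likelihood tests with all 12 libraries in 1 fit, a coefficient per group and Benjamini-Hochberg adjustment at 0.05. Depth of 12719699 to 15771655 reads leaves Bcl2 and Bid with wide counting error. Alternatives used DESeq2 1.42.0, limma 3.58.1 on log2 CPM and on log2(RPKM + 0.1), other scaling, no filter, a replicate block and libraries left out. Scripts were tested on simulated data. Library pairs within a group differed by a chi-square per degree of freedom of at least 3.48, so none was counted as a copy of another library. The closest were 5NC replicates 2 and 3 (3.48), knockdown replicates 2 and 3 (3.82) and overexpression replicates 1 and 2 (4.62). The other pairs lay between 12.1 and 40.1. These values cannot tell separate animals from repeat preparations of the same animal.

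The 9 genes, the gene lists and the tests were chosen with earlier results of these data known. Some genes of the lists are not reported here and are left out of the list counts. Genes named singly were the 9, any list gene that passed or else the 2 with the smallest p in a comparison, the closest partner of each of the 9, and Ptprc. Casp1, Casp6, Casp8, the Bcl2a1 genes, Bcl2l10, the globin genes, Spo11, Spint3, the markers at 0 and genes sharing exons with the 9 fall outside this rule. Coordinates are RefSeq genes of GRCm38.p6 and overlaps GENCODE vM21, the same build as mm10.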

Additional observations from a re-analysis of the deposited data

How the results depend on the processing

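In every setting tried, 0 of the 9 genes passed in any of the 4 comparisons, although Bcl2 was not tested where a minimum RPKM of 0.5 in 3 libraries was set. Of 379 fold changes recomputed with another setting, 19 changed sign and 0 changed side of the threshold. Of 432 with 1 library left out, 36 changed sign and 0 changed side. The smallest adjusted p of the 9 over all settings was 0.473 for knockdown against 3NC, 0.309 for overexpression against 5NC, 0.294 for 5NC against 3NC and 0.601 for the difference of effects. The log2 fold changes that turned sign follow, and the cause was not tested.

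For knockdown against 3NC, Bcl2 was at -0.20 with limma-trend on log2(RPKM + 0.1) without a filter and at -0.052 without both 3NC replicate 2 and knockdown replicate 1. For overexpression against 5NC, Bcl2l1 was at -0.0097 with log2(RPKM + 0.1), filtered or not, and at -0.0095 with log2(RPKM + 1). For 5NC against 3NC, Bcl2l1 was at -7.5e-05 with RLE size factors, and without both libraries Bcl2l1 was at -0.064, Bcl2 at 0.040, Mcl1 at 0.065 and Bak1 at 0.0092. For the difference of effects, Mcl1 was at 0.019 with total counts, and Mcl1 and Bak1 were at 0.061 and 0.020 with log2(RPKM + 0.1), filtered or not, at 0.058 and 0.014 with log2(RPKM + 1) and at 0.020 and 0.094 without both libraries.

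With 1 library left out, fold changes for knockdown against 3NC ran from -0.75 to 0.91 for Bcl2, -0.28 to 0.57 for Bak1, -0.36 to 0.16 for Mcl1, -0.55 to 0.12 for Bax and -0.27 to 0.0068 for Casp9. Bcl2 was highest without 3NC replicate 2 and lowest without knockdown replicate 1, and Bax was highest without 3NC replicate 2 and lowest without 3NC replicate 3. For overexpression against 5NC they ran from -0.10 to 0.024 for Bax and -0.0096 to 0.15 for Bcl2l1. For 5NC against 3NC they ran from -0.085 to 0.093 for Bcl2l1, -1.18 to 0.045 for Bcl2, -0.36 to 0.064 for Mcl1, -0.75 to 0.0079 for Bak1 and -0.10 to 0.0010 for Casp9. For the difference they ran from -1.15 to 0.50 for Bcl2, -0.26 to 0.26 for Mcl1, -0.51 to 0.16 for Bax, -0.41 to 0.44 for Bak1, -0.040 to 0.12 for Bcl2l2 and -0.018 to 0.16 for Bcl2l1.

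Whether the numbers 1 to 3 in the labels pair the libraries was not settled. With group means of log2 CPM subtracted, correlations between same-numbered libraries were -0.52, -0.64 and 0.39 for knockdown with 3NC. They were 0.19, -0.12 and 0.15 for overexpression with 5NC and 0.31, 0.18 and -0.01 for 5NC with 3NC. Between differently numbered libraries they ran from -0.58 to 0.77, -0.31 to 0.23 and -0.27 to 0.07 in that order. A replicate block gave 0 of the 9 genes in each comparison and 0, 21, 5 and 2 of all genes, in place of 0, 51, 21 and 4. DESeq2 called 16, 313, 166 and 42 of all genes.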
